A study of Mus musculus with 12 samples.

Results

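A set of 7 genes that are known from neutrophils and inflammatory monocytes was examined: S100a8, S100a9, Retnlg, Trem1, Il1r2, Chil3 and Ly6c2. They were chosen by symbol, after earlier results of the same data had shown them higher in WD offspring than in CD offspring. All 7 were found among 10655 genes with values. Because of this choice, their levels in any comparison of the offspring's diets are given as a description with no test.

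RNA of mouse aortic endothelial cells (MAECs in the labels) was sequenced by SMART-seq, a protocol for full-length cDNA, in a study of maternal high-fat diet and atherosclerosis in offspring. The 12 libraries formed 4 groups of 3, whose titles join the names of a pair of diets. These were WD_WD (WD offspring of WD mothers), CD_WD (WD offspring of CD mothers), WD_CD (CD offspring of WD mothers) and CD_CD (CD offspring of CD mothers). Here the diet named first is taken for the mother's and the other for the offspring's, because the series text lists mothers before offspring. The titles alone do not settle this. The series text adds that both groups of WD offspring received WD once more over 4 weeks. Genotype, strain, sex, age, cell sorting and batch are not in the labels, which also leave unstated whether replicates came from separate animals. P-values therefore measure only the spread between these libraries, which may be technical.

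S100A8 and S100A9 are small calcium-binding proteins that join into the heterodimer calprotectin, an abundant cytosolic protein of neutrophils and of monocytes newly released from the bone marrow. TREM1 is a receptor that amplifies inflammatory signals in both cell types, and IL1R2 is a decoy receptor that binds interleukin 1 without passing a signal on. In mice, resistin-like gamma (Retnlg) is expressed by neutrophils, chitinase-like 3 (Chil3, also called Ym1) by neutrophils and some monocytes and macrophages, and Ly6c2 encodes part of the Ly6C antigen that marks inflammatory monocytes. Neutrophils and Ly6C-high monocytes enter the arterial wall during atherosclerosis.

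The libraries held 4074413 to 19670570 reads in the genes of the table. The 14 endothelial markers measured took 0.0628% to 0.0951% of the reads in WD_WD and 0.00787% to 0.234% in CD_WD, against 0.806% to 1.15% in WD_CD and 1.08% to 1.37% in CD_CD. Markers of dendritic cells and MHC class II took 2.24% to 4.47% in WD_WD and 4.23% to 13.1% in CD_WD, against 0.150% to 1.17% in WD_CD and 0.192% to 0.409% in CD_CD. CD_WD replicate 1 stood apart, with the lowest endothelial and macrophage shares and the highest MHC class II and B cell shares of the 12 libraries. A batch or preparation that went with the offspring's diet cannot be told apart from it. In such bulk libraries, fewer cells of a type and less RNA per cell cannot be told apart either.

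The promoter windows of 5 of the genes follow, because annotated transcripts of these genes start there and because 4 of these windows share a short motif. S100a8 and S100a9 lie 22596 bases apart on chromosome 3 and are read from opposite strands, and Chil3 lies on the same chromosome. Each window runs from 250 bases before to 50 bases after the start of transcription given by RefSeq on GRCm38.p6, 5′ to 3′ on the strand of the gene. Capitals mark TATAAA on the gene strand and AGGAAGT on either strand, which reads ACTTCCT where it lies on the opposite one.
S100a8, chr3:90668821-90669120, plus strand: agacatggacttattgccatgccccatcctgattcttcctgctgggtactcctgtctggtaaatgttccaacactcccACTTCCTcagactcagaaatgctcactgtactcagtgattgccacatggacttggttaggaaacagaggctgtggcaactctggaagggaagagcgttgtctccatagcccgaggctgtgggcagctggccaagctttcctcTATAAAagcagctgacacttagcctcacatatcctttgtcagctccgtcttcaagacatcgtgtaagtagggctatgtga
S100a9, chr3:90695672-90695971, minus strand: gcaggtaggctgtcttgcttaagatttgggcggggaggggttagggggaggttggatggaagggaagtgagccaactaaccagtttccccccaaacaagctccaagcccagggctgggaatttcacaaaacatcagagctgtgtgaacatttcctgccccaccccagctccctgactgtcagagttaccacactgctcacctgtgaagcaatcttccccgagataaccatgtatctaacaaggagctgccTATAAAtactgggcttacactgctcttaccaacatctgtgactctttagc
Chil3, chr3:106167515-106167814, minus strand: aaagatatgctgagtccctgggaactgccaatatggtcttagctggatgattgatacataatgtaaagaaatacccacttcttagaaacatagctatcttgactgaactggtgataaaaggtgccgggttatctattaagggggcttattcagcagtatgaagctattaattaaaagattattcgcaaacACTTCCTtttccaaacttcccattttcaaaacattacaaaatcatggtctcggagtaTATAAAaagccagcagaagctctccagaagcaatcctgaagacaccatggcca
Trem1, chr17:48232489-48232788, plus strand: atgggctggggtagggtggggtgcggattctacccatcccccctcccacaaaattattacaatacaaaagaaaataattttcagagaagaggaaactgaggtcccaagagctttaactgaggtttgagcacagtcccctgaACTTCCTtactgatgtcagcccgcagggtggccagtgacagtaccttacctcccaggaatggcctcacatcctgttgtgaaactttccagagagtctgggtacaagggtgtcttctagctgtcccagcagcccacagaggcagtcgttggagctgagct
Ly6c2, chr15:75111922-75112221, minus strand: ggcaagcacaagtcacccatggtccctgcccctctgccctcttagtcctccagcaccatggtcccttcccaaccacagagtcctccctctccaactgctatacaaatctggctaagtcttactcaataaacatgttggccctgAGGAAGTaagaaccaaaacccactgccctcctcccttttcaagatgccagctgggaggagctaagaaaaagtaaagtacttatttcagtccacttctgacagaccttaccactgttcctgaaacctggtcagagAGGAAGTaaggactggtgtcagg

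TATAAA, the core of the TATA box that places the start of transcription, began at base -30 of the S100a8 window, at base -3 of Chil3 and at base 1 of S100a9, counted from the RefSeq start with no base 0. In Chil3 and S100a9 these letters thus lie at the RefSeq start itself, and whether they act as a TATA box there was not tested. TATAAA occurred in 3 of 8 windows of the 7 genes (Ly6c2 has a pair of windows) and in 8.32% of 32851 mouse promoters of the same length. AGGAAGT, a sequence bound by ETS factors such as PU.1, occurred on either strand in 5 of the 8 windows, those of S100a8, Chil3, Trem1 and Ly6c2, and in 9.35% of all promoters. TTNNGNAA, a loose form of the C/EBP motif, was in 7 of 8 windows and in 40.7% of all promoters. CACGTG, an E-box, was found in the Il1r2 window only among the 8, and in 7.15% of all promoters. A loose NF-kB motif, GGG and CC with any 5 bases between them, was in 2 of 8 windows and 50.8% of promoters, while TGANTCA, the AP-1 motif, was in 0 of 8 and 7.81%. The motifs were searched on both strands except TATAAA, and overlaps between motifs were not removed. A match of letters is a description and no binding was measured here.

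S100a8, at chr3:90668978-90670035 in the GENCODE M21 annotation of GRCm38, had the highest level of the 7 in WD offspring once length was taken into account. It reached 7364, 131057 and 71441 normalised counts in WD_WD replicates 1 to 3 and 39847, 148746 and 18062 in CD_WD, against 319, 5.18 and 74.9 in WD_CD and 0.694, 31.1 and 56.8 in CD_CD. Normalised counts are reads divided by a size factor for each library. Every WD library lay above every CD library, and the lowest of them, WD_WD replicate 1, was 23.1-fold above the highest CD library, WD_CD replicate 1. Means were 69954 ± 61860 in WD_WD against 133 ± 165 in WD_CD, and 68885 ± 70014 in CD_WD against 29.5 ± 28.1 in CD_CD (SD, n = 3 each). On the scale of log2(normalised count + 1), the difference was 9.59 ± 1.57 (SE) with WD mothers and 11.66 ± 1.57 with CD mothers.

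Its partner S100a9, at chr3:90692632-90695721 on the minus strand, showed 3501, 34034 and 23349 normalised counts in WD_WD and 8937, 36330 and 5132 in CD_WD, against 125, 0.398 and 50.2 in WD_CD and 45.4, 22.1 and 16.6 in CD_CD. The libraries of the offspring diets did not overlap for this gene either, and WD_CD replicate 1 was again the highest of the CD libraries. The log2 difference was 9.40 ± 1.38 with WD mothers and 8.80 ± 1.38 with CD mothers. S100a8 had 2.10, 3.85 and 3.06 reads for each S100a9 read in WD_WD and 4.46, 4.09 and 3.52 in CD_WD. In these 6 libraries the ratio stayed between 2.10 and 4.46 while the levels spread over 20.2-fold for S100a8 and 10.4-fold for S100a9. In CD offspring, where reads were few, the ratio was 2.55, 13 and 1.49 in WD_CD and 0.0153, 1.41 and 3.41 in CD_CD.

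Retnlg, at chr16:48872621-48874496, had 2343, 4565 and 8469 normalised counts in WD_WD and 16239, 6873 and 1355 in CD_WD, against 271, 36.7 and 231 in WD_CD and 206, 51.1 and 215 in CD_CD. The WD libraries were all above the CD libraries, by 4.998-fold between the nearest of them, and CD_WD replicate 1 was the highest. Retnlg showed the smallest log2 difference of the 7 genes with WD mothers, 5.07 ± 0.95, and one of 5.33 ± 0.95 with CD mothers. Every CD library held Retnlg reads, and the means there were 179 ± 125 in WD_CD and 158 ± 92.4 in CD_CD (SD, n = 3 each).

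Trem1, at chr17:48232768-48246924, had 231, 2781 and 792 normalised counts in WD_WD and 167, 937 and 442 in CD_WD, against 0, 0 and 0 in WD_CD and 8.67, 15.1 and 9.74 in CD_CD. It was the only one of the 7 genes with no read in a whole group. Among all 10655 genes, 168, 164 and 463 had no read in WD_CD replicates 1, 2 and 3. The share of all genes with no read in the whole group is not given here, and whether Trem1 is unusual in this was not tested. The WD libraries lay above all CD libraries, by 11.1-fold between the nearest. The mean of WD_WD was at least 2689-fold higher than the floor of WD_CD, which is set at 3 reads over the group, or 0.472 normalised counts. The log2 difference was 5.12 ± 1.00 with CD mothers.

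Il1r2, at chr1:40074079-40125231, had 724, 7103 and 2118 normalised counts in WD_WD and 682, 3015 and 1540 in CD_WD, against 269, 0.398 and 0 in WD_CD and 0, 34.7 and 19.5 in CD_CD. The WD libraries stood above the CD libraries by 2.54-fold between the nearest, CD_WD replicate 1 and WD_CD replicate 1. The other 5 CD libraries held little or no Il1r2, so that the mean of WD_CD, 89.6 ± 155 (SD, n = 3), rests on its first replicate. The log2 difference was 8.26 ± 1.89 with WD mothers and 7.35 ± 1.89 with CD mothers.

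Chil3, at chr3:106147554-106167564 on the minus strand, had 1387, 7472 and 3908 normalised counts in WD_WD and 233, 9807 and 2739 in CD_WD, against 30.5, 0 and 0 in WD_CD and 0, 17.2 and 323 in CD_CD. By normalised counts it was the only one of the 7 whose WD and CD libraries overlapped, since CD_WD replicate 1 lay below CD_CD replicate 3. The log2 difference was 10.09 ± 1.96 with WD mothers and 6.68 ± 1.96 with CD mothers. Of the 50-base stretches in its GENCODE transcripts, 26.9% also occur in transcripts of other genes, mostly of the neighbouring family member Chil4 (16.9%), so part of its reads could be split or moved in counting.

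Ly6c2, at chr15:75108158-75111970 on the minus strand, had 1593, 2730 and 5820 normalised counts in WD_WD and 6604, 5865 and 2693 in CD_WD, against 164, 10.8 and 10.03 in WD_CD and 77.7, 21.3 and 60.9 in CD_CD. It was the most even of the 7 in WD offspring, with a 4.15-fold range over the 6 libraries, and its WD and CD libraries did not overlap. The log2 difference was 6.73 ± 0.92 with WD mothers and 6.63 ± 0.92 with CD mothers. Its transcripts share 13.9% of their 50-base stretches with those of Ly6c1, a paralog that endothelial cells express. Ly6c1 averaged 4430 normalised counts in WD_WD and 11104 in CD_WD, against 6849 in WD_CD and 9566 in CD_CD, and so did not follow the same order as Ly6c2.

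**Figure D1:**
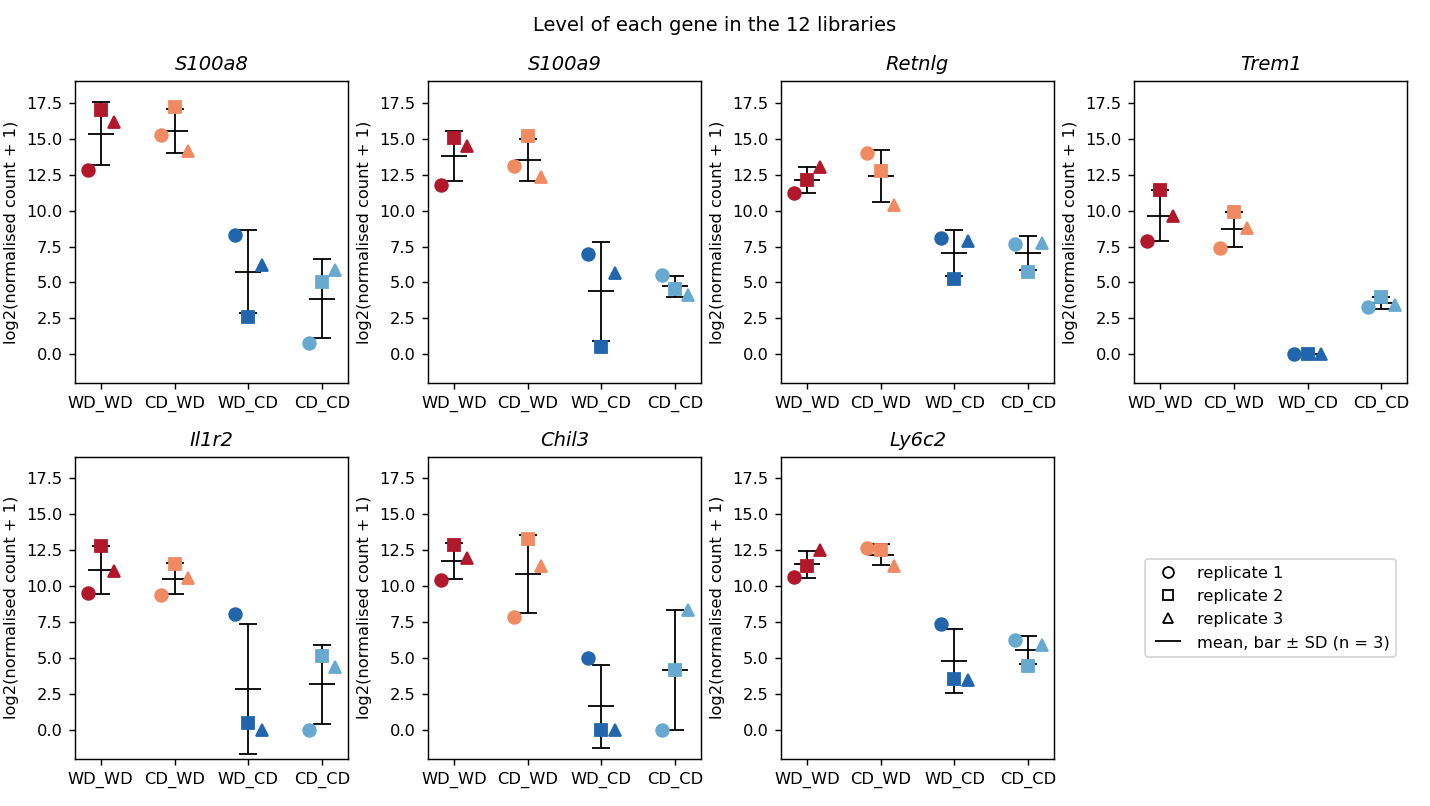
Normalised counts of the 7 genes in each library (log axis), with the 4 groups along the horizontal axis and 1 symbol for each replicate. In 6 of 7 genes all 6 WD libraries lie above all 6 CD libraries, and Chil3 overlaps through CD_WD replicate 1 at 233 and CD_CD replicate 3 at 323.

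By normalised counts, 6 of the 7 genes (all but Chil3) had every WD library above every CD library, and 12.6% of all genes tested did so. All 7 had every WD_WD library above every WD_CD library, where 21.9% of all genes did, and 6 had every CD_WD library above every CD_CD library, where 21.9% did. Since the genes were chosen on these contrasts, the counts describe the choice.

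The size of these differences depended on single libraries. Leaving out 1 library at a time, the log2 difference with WD mothers ran from 8.04 to 10.89 for S100a8, 7.45 to 10.70 for S100a9, 4.16 to 5.59 for Retnlg, 6.84 to 10.87 for Il1r2, 9.26 to 11.75 for Chil3 and 6.06 to 8.01 for Ly6c2. Each of these was highest without WD_CD replicate 1, the CD library with the most reads of the 7 genes, and lowest without WD_CD replicate 2, or replicate 3 for Il1r2 and Ly6c2. With CD mothers Chil3 ran from 4.59 without CD_CD replicate 1 to 8.76 without CD_CD replicate 3, and S100a8 from 10.11 to 12.65 without the same libraries. Il1r2 ran from 5.76 without CD_CD replicate 1 to 8.34 without CD_CD replicate 2, and Retnlg from 4.52 without CD_WD replicate 1 to 6.31 without CD_WD replicate 3. The ranges were 7.99 to 9.40 for S100a9, 4.52 to 5.76 for Trem1 and 6.08 to 7.03 for Ly6c2, with the ends set by CD_WD replicates for S100a9 and Trem1 and by CD_CD replicate 2 and CD_WD replicate 3 for Ly6c2.

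Per length, as reads per kilobase of exon scaled to the reads of each library (RPKM, computed here), the 7 genes kept nearly 1 order in WD offspring. The medians over the 6 libraries were 4196 for S100a8, 1703 for S100a9, 589 for Retnlg, 128 for Chil3, 73.9 for Ly6c2, 60.4 for Il1r2 and 12.95 for Trem1. S100a8 was first and Trem1 last in 6 of 6 libraries, and S100a9 was in second place in 5, with Retnlg in its place in CD_WD replicate 1. The ranges of Chil3 (5.005 to 399.8), Ly6c2 (28.4 to 142) and Il1r2 (12.5 to 197) overlapped, so their order in the middle does not hold library by library. In CD offspring the order differed: Retnlg had the highest median, 51.9, and was first in 5 of 6 libraries. S100a9 at 9.39 and S100a8 at 9.13 followed and did not differ beyond their ranges, and the medians of Ly6c2, Il1r2, Chil3 and Trem1 lay between 0.212 and 2.17.

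Together the 7 genes took 0.0838% (95% Wilson interval 0.0818% to 0.0858%), 1.00% and 0.718% of the reads in WD_WD and 0.255%, 1.41% and 0.206% in CD_WD. In WD_CD they took 0.0164%, 0.000778% (0.000657% to 0.000921%) and 0.00513%, and in CD_CD 0.00497%, 0.00274% and 0.0102%. The intervals cover counting error only, and the differences between replicates of a group were far wider than any of them. By number of reads, which also grows with gene length, S100a8 ranked 305, 15 and 19 among all genes in WD_WD and 81, 9 and 96 in CD_WD, whereas its best rank in a CD library was 4478. Among CD libraries WD_CD replicate 1 held the largest share of these genes. It also held the largest CD share of macrophage markers, 0.770%, and of MHC class II and dendritic cell markers, 1.17%. The part of that library's other cell markers in the members' levels was not tested.

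**Figure D2:**
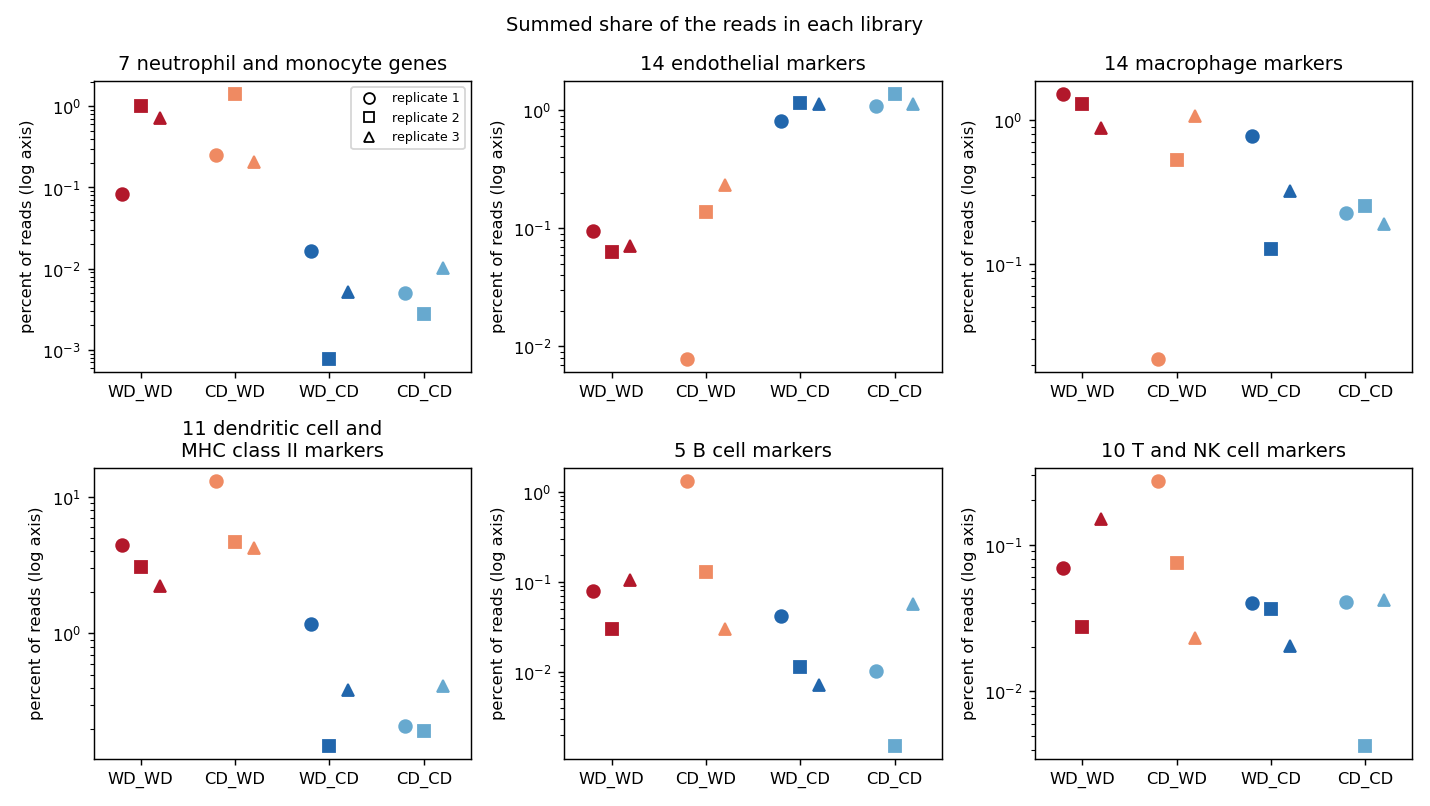
Summed share of the reads in each library, in percent on a log axis, for the 7 genes and for 5 lists of cell type markers, with groups along the horizontal axis and 1 symbol for each replicate. CD_WD replicate 1 has the lowest endothelial and macrophage shares and the highest MHC class II, B cell and T and NK cell shares, while its share of the 7 genes (0.255%) is inside the range of the other WD libraries.

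Within WD offspring, the 7 genes moved together in some libraries and parted in others. Each gene was centred on its own mean log2 level over the 6 WD libraries, and the distance between a pair of genes was taken as the root mean square difference of the centred levels. The closest of the 21 pairs were Trem1 and Il1r2 at 0.22, S100a8 and S100a9 at 0.36, and Retnlg and Ly6c2 at 0.70. The farthest were Retnlg and Chil3 at 2.43, Chil3 and Ly6c2 at 2.01, and Retnlg and Trem1 at 1.84. These distances describe 6 libraries that share a diet and are not tests. All 7 genes lay below their own means in WD_WD replicate 1 (-2.58 to -0.86). All 7 lay above them in WD_WD replicate 3 (0.23 to 0.85) and CD_WD replicate 2 (0.49 to 1.96). In CD_WD replicate 3 all but Chil3 (0.12) lay below.

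The pairs parted most in CD_WD replicate 1, the library with the highest shares of MHC class II, B cell (1.30%) and T and NK cell markers (0.270%). There Retnlg lay 1.73 and Ly6c2 0.83 log2 units above their own means, each at its highest, while Trem1 lay at -1.77, Il1r2 at -1.40 and Chil3 at -3.43, each at its lowest. In WD_WD replicate 2 the sides were changed: Trem1 at 2.28 and Il1r2 at 1.98 were at their highest, with Retnlg at -0.10 and Ly6c2 at -0.45. S100a8, S100a9 and Chil3 peaked in CD_WD replicate 2, at 1.75, 1.49 and 1.96. WD_WD replicate 1 held the lowest level of S100a8, at -2.58, of S100a9, at -1.88, and of Ly6c2, at -1.22.

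Ratios of reads restate the levels of the same libraries and are no separate evidence. In the parting above, S100a8 lay near its mean in CD_WD replicate 1, at -0.15. In WD_WD replicate 2 it lay at 1.57, on the side of Trem1 and Il1r2. Its distance was 0.98 from Il1r2 and 1.06 from Trem1, against 1.21 from Ly6c2 and 1.33 from Retnlg. In WD_WD replicate 1 the high ratio of Retnlg to S100a8 went with low S100a8 (-2.58 from its mean), while Retnlg was low too (-1.06). For each 100 S100a8 reads there were 31.8, 3.48 and 11.9 Retnlg reads in WD_WD and 40.8, 4.62 and 7.50 in CD_WD, a range of more than an order of magnitude. For each 100 Il1r2 reads there were 31.9, 39.2 and 37.4 Trem1 reads in WD_WD and 24.5, 31.1 and 28.7 in CD_WD. The ratio of Trem1 to Il1r2 thus stayed between 24.5 and 39.2 per 100 over libraries in which the level of each gene spread at least 10.4-fold.

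**Figure D3:**
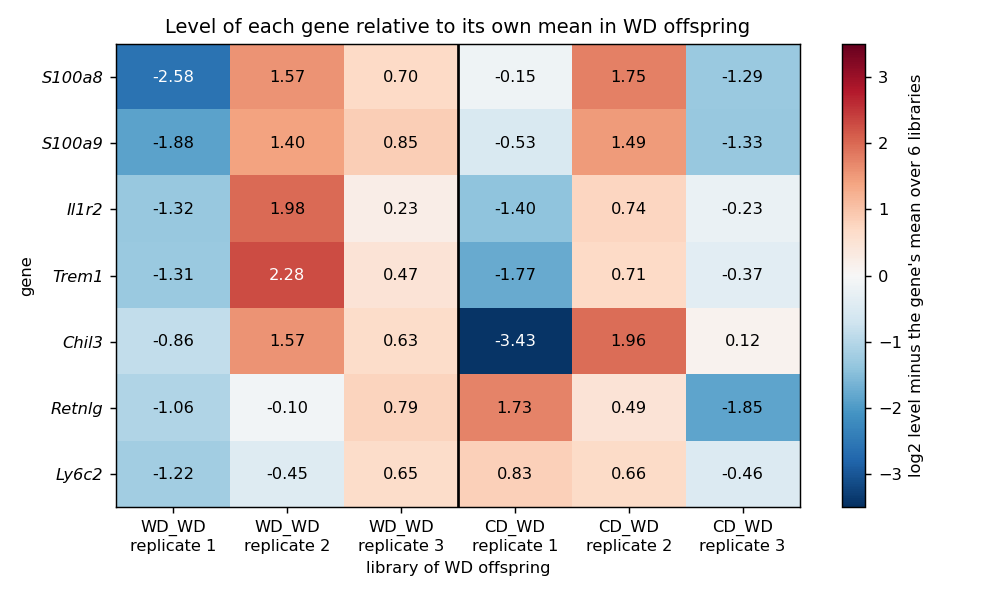
Log2 level of each gene minus its own mean over the 6 WD libraries, by gene (rows) and library (columns), with the value printed in each cell. CD_WD replicate 1 is high for Retnlg (1.73) and Ly6c2 (0.83) and low for Trem1 (-1.77), Il1r2 (-1.40) and Chil3 (-3.43).

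Defining markers of both cell types were set beside the parting of Retnlg and Ly6c2 from Trem1 and Il1r2. Of 8 genes that define neutrophils, 1 was measured, Csf3r, the receptor for granulocyte colony-stimulating factor. It had 195, 1570 and 459 normalised counts in WD_WD and 132, 615 and 321 in CD_WD, against 85.3, 13.9 and 0.669 in WD_CD and 164, 0 and 15.4 in CD_CD. WD and CD libraries overlapped, since CD_CD replicate 1 lay above CD_WD replicate 1. Csf3r rose with WD mothers (log2 5.34, limma adjusted p = 0.04) and did not pass with CD mothers (4.42, adjusted p = 0.104). In the centred levels of WD offspring it lay 0.15 from Il1r2 and 0.22 from Trem1, and 1.73 from Retnlg and 1.41 from Ly6c2.

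Of the 5 genes that define classical monocytes, Plac8 passed and Ccr2, Csf1r, Vcan and F13a1 did not. F13a1 lay lower in WD offspring, at log2 -1.81 with WD mothers and -1.01 with CD mothers (limma adjusted p = 0.172 and 0.514). Vcan was at 0.0074 and -2.06 (limma adjusted p = 0.995 and 0.172). The median of the 5 genes was log2 0.55 with WD mothers and 0.68 with CD mothers. Plac8, a gene of monocytes, granulocytes and lymphocytes, averaged 7045 ± 2163 in WD_WD against 256 ± 153 in WD_CD, and 13326 ± 7492 in CD_WD against 283 ± 152 in CD_CD. It rose by log2 4.98 with WD mothers and 5.47 with CD mothers (limma adjusted p = 0.000409 and 0.000541). Its distance was 0.43 from Ly6c2 and 0.67 from Retnlg, and 1.57 from Il1r2 and 1.76 from Trem1. The other 4 did not share this order: Csf1r lay nearer to Il1r2 (0.99) and Trem1 (1.06) than to Ly6c2 (1.57) and Retnlg (2.08), and so did F13a1 (1.70 and 1.83 against 2.07 and 2.55). Ccr2 lay at 0.95 from Ly6c2, 1.09 from Il1r2, 1.22 from Trem1 and 1.503 from Retnlg, and Vcan at 1.84 to 2.26 from these 4 genes. Ccr2, the chemokine receptor of inflammatory monocytes, averaged 370 ± 133 in WD_WD against 330 ± 310 in WD_CD, and 385 ± 204 in CD_WD against 104 ± 38.9 in CD_CD (adjusted p = 0.42 and 0.276).

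Over all 12 libraries, the genes nearest to each of the 7 were found by the same distance on levels centred over the 12. Such a distance includes the difference between the offspring diets on which the 7 were chosen. Genes with a similar difference are therefore near by construction, and the distances are no test. The nearest genes are named below. The nearest were Irg1, Hcar2 and Ccl4 for S100a8 (1.91 to 2.42) and Slpi, Il1b and Ccl4 for S100a9 (1.68 to 1.78). For Retnlg they included Plac8 (0.70) and Hcst (0.83), and for Ly6c2 they were Nkg7, Lpxn and Il2rb (0.87 to 1.03). For Il1r2 they were Osm, Il1a and Fcgr4 (0.69 to 1.21), for Trem1 Car2, Slc2a6 and Guca1a (0.90 to 1.47) and for Chil3 Slc2a6, Osm and Fcgr4 (1.55 to 1.81). Ccl4, Osm, Fcgr4 and Slc2a6 were each nearest for more than 1 of the 7. S100a8, S100a9 and Chil3 had no gene nearer than 1.55 outside the list, while Retnlg, Il1r2, Ly6c2 and Trem1 each had 1 within 0.90.

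The study also asked what the mother's diet changed, and this contrast did not choose the genes, although it uses the same libraries. In WD offspring none of the 7 passed between WD_WD and CD_WD by limma with Benjamini-Hochberg adjustment over all genes, and the libraries of both groups overlapped for all 7 (10% of all genes did not overlap). S100a8 averaged 69954 in WD_WD and 68885 in CD_WD. Its mean log2 level was 15.32 in WD_WD and 15.54 in CD_WD, a difference of -0.21 ± 1.57 (SE, adjusted p = 0.995), so the order of the mean log2 levels is opposite to that of the plain means. Trem1 showed the widest difference, 0.96 ± 1.00 (adjusted p = 0.939), with means of 1268 ± 1340 in WD_WD and 516 ± 390 in CD_WD. For S100a9, Il1r2 and Chil3 the values were 0.25 ± 1.38, 0.59 ± 1.89 and 0.90 ± 1.96, and for Retnlg and Ly6c2 -0.25 ± 0.95 and -0.68 ± 0.92, with adjusted p between 0.953 and 0.993. With standard errors of 0.92 to 1.96 on the log2 scale, differences of several fold were not detectable with 3 libraries a group. No gene of the table passed (628 had an unadjusted p under 0.05), edgeR called 0 and DESeq2 14, none of them among the 7.

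In CD offspring, Trem1 was the only one of the 7 whose groups did not overlap (8.87% of all genes did not, and 4.87% were lower in every WD_CD library). It had 0 reads in each WD_CD library against 25, 37 and 24 reads in CD_CD, where the mean was 11.2 ± 3.46 normalised counts (SD, n = 3). Against the floor of 3 reads over the group, Trem1 was at least 23.7-fold lower in WD_CD. By limma the difference was -3.57 ± 1.00 on the log2 scale with a pseudocount of 1 (unadjusted p = 0.00359, adjusted p = 1.00). DESeq2 on the whole reads called it, at adjusted p = 0.00278, and edgeR did not, at adjusted p = 1.00. Over all alternatives tried its adjusted p ran from 0.00278 to 1.00. In the authors' deposited table Trem1 stood at log2 -6.97 with adjusted p = 0.0011, one of 13 genes called there (0.122% of all). In WD offspring that table gave Trem1 1.30 with adjusted p = 0.650, and none of the 7 was among the 36 genes it called (0.338% of all).

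For the other 6 genes the libraries of WD_CD and CD_CD overlapped. S100a8 was at log2 1.86 ± 1.57, with its highest level in WD_CD replicate 1 and its lowest in CD_CD replicate 1. Chil3 was at -2.51 ± 1.96, with its highest level in CD_CD replicate 3 and no read in 3 of the 6 libraries. S100a9, Retnlg, Il1r2 and Ly6c2 lay between -0.78 and 0.01 (limma adjusted p = 1.00 for each of the 6). Between WD_CD and CD_CD, the calls over all genes were 0 by limma, where 276 genes had an unadjusted p under 0.05, with 0 by edgeR and 9 by DESeq2. Il1r2 is the gene that otherwise followed Trem1: WD_CD replicate 1 held 633 Il1r2 reads and 0 Trem1 reads, whereas CD_CD replicates 2 and 3 had 43.5 and 50 Trem1 reads for each 100 Il1r2 reads. CD_CD replicate 1 held 25 Trem1 reads and no Il1r2 read.

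For Trem1 the interaction, the difference of WD_WD minus CD_WD less that of WD_CD minus CD_CD, was log2 4.53 ± 1.42 (limma unadjusted p = 0.00723, adjusted p = 0.997). DESeq2 gave 8.27 with adjusted p = 0.0018, and the adjusted p over the alternatives ran from 0.0018 to 1.00. For the other 6 genes this interaction lay between -2.07 ± 2.22 for S100a8 and 3.41 ± 2.77 for Chil3, with adjusted p = 0.997 for each by limma, which called 0 of all genes (342 at an unadjusted p under 0.05), against 0 by edgeR and 10 by DESeq2. Whether Trem1 is called thus depends on the test.

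**Figure D4:**
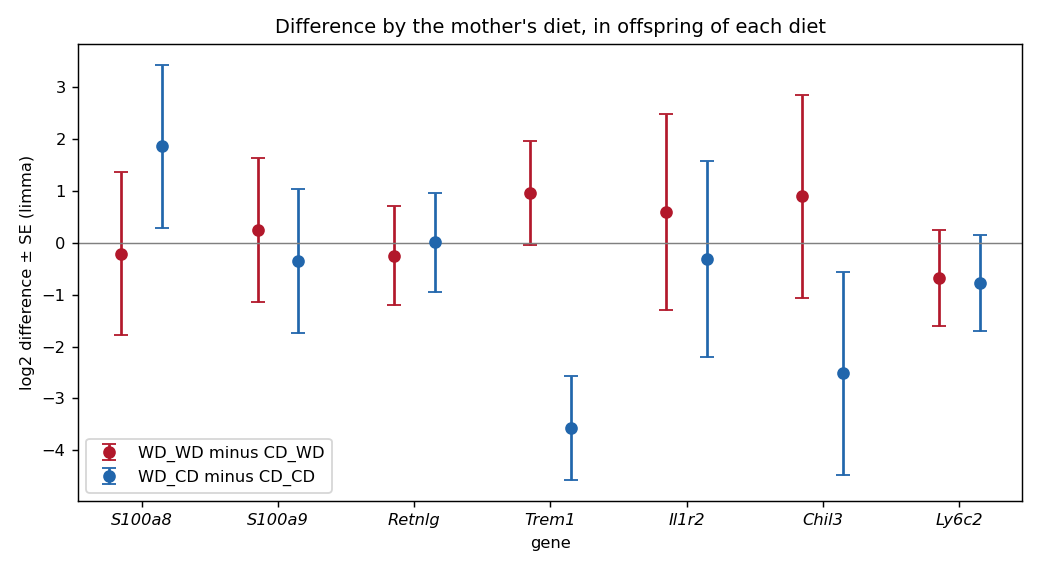
Log2 difference by the mother's diet for each of the 7 genes, with the standard error from limma as bars, in WD offspring (WD_WD minus CD_WD) and in CD offspring (WD_CD minus CD_CD). Trem1 in CD offspring lies farthest from 0, at -3.57 ± 1.00, and no difference passed the adjusted threshold in limma.

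Genes that work with the 7 were read from 15 lists, with the 7 themselves left out, and counted as higher where limma called them with WD mothers and again with CD mothers. The lists were chosen with earlier results of these data known, and the same contrasts chose the 7. Counts and p-values of list genes between the offspring diets are therefore a description and no independent support. This holds for the defining markers above too. Of all genes tested, 825 or 7.74% were higher with both mothers and 411 or 3.86% lower. Some genes are in several lists, so the counts are not independent of each other. S100a4, S100a6 and S100a10 count as S100 and classical monocyte genes, and Pglyrp1 as a granule protein and TREM1 signalling gene. Il1a and Il1b count as activated transcripts and interleukin 1 genes, and Cxcl2, Ccl3 and Ccl4 as activated transcripts and attractants. Among other S100 genes, whose products are mostly calcium sensors, 5 of 8 were higher. S100a4, which also marks migrating leukocytes, averaged 16354 ± 3241 in WD_WD against 890 ± 290 in WD_CD (log2 4.23, adjusted p = 0.000211). With CD mothers it averaged 12755 ± 6718 in CD_WD against 1225 ± 341 in CD_CD (3.27, adjusted p = 0.00121). Of 10 genes for receptors of S100A8/A9 and their signalling, 1 was higher, Cd14, the co-receptor of TLR4, and the count was 0 when any 1 of 9 of the 12 libraries was left out, and 1 without CD_CD replicate 2, WD_CD replicate 1 or CD_WD replicate 1. Tlr4 itself fell with WD mothers, to 70.0 ± 37.9 in WD_WD against 286 ± 124 in WD_CD (log2 -2.03, adjusted p = 0.0337), and did not pass with CD mothers (-0.9999, adjusted p = 0.317). Cd36, a scavenger receptor, fell with CD mothers (-1.93, adjusted p = 0.0395) and did not pass with WD mothers (-0.77, adjusted p = 0.340).

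TREM1 signals through the adaptor DAP12, the product of Tyrobp, and 4 of 11 genes of its signalling were higher. Tyrobp averaged 75531 ± 18514 in WD_WD against 1908 ± 1663 in WD_CD, and 34596 ± 13293 in CD_WD against 850 ± 38.2 in CD_CD. It rose by log2 5.97 with WD mothers and 5.26 with CD mothers (limma adjusted p = 0.000469 and 0.00149). Pglyrp1, a granule protein that in humans can act as a ligand of TREM1, rose by 3.41 and 3.66 (adjusted p = 0.00153 and 0.00167). In WD_CD, where Trem1 had no reads, the mean of Pglyrp1 was 126 ± 20.9 against 137 ± 61.7 in CD_CD, a difference within the spread of the libraries.

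In the interleukin 1 system, 3 of 18 genes were higher. These were Il1a, Il1b and Pycard, which encode both classic ligands and an adaptor of the inflammasome that releases interleukin 1 beta. Il1b averaged 28091 ± 19644 in WD_WD against 624 ± 905 in WD_CD, and 19034 ± 14184 in CD_WD against 341 ± 295 in CD_CD (log2 6.80 and 5.94, limma adjusted p = 0.00185 and 0.00539). Il1a, like the decoy receptor gene Il1r2, was near 0 in most CD libraries and rose by 8.99 with WD mothers and 7.19 with CD mothers (adjusted p = 0.00508 and 0.0209). Il1r1, the signalling receptor, fell with CD mothers, to 42.1 ± 21.7 in CD_WD against 299.95 ± 191 in CD_CD (-2.73, limma adjusted p = 0.0441), and did not pass with WD mothers (-1.88, adjusted p = 0.115).

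Of 17 granule protein genes listed, 6 were measured, and Mpo, Elane, Camp and Ltf were among those without values. Of these 6, Pglyrp1, Lyz2 and Slpi were higher, while Lcn2, Mmp9 and Hp did not pass with either mother. Also higher were 4 of 6 NADPH oxidase subunit genes and 4 of 17 measured surface receptor genes (24 listed). Of those receptor genes 13 were higher with WD mothers, where 14.2% of all genes were, and 4 with CD mothers, where 9.46% were. Cyba, the oxidase's membrane subunit, rose by log2 4.65 with WD mothers and 4.63 with CD mothers, and Ncf4, a cytosolic subunit, by 3.31 with WD mothers and 4.22 with CD mothers. Slpi, a protease inhibitor, rose by 8.80 and 6.34, and Itgb2, the beta 2 integrin chain, by 2.83 and 3.22 (limma adjusted p of these 4 between 0.000344 and 0.0136). Of 24 transcripts of activated neutrophils and monocytes 15 were higher, among them Cxcl2, a chemokine that draws neutrophils, by 4.84 and 4.28, and Ifitm1 by 5.50 and 6.62 (adjusted p between 0.000762 and 0.00233).

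Of 21 classical monocyte genes 7 were higher and 1 lower, and of 11 nonclassical monocyte genes 1 was higher and 1 lower. The lower one was Ace, angiotensin-converting enzyme, which endothelial cells also express, at 280 ± 98.5 in WD_WD against 2526 ± 645 in WD_CD and 312 ± 207 in CD_WD against 2105 ± 317 in CD_CD. Among 17 myeloid transcription factors 5 were higher and 1 lower. Spi1, which encodes PU.1, rose by log2 3.56 and 3.54, and Cebpb by 2.67 and 3.13 (limma adjusted p between 0.000786 and 0.00217). Of 16 attractants of neutrophils and monocytes 6 were higher, with Ccl5 at 6.12 and 6.83 and Ccl4 at 7.09 and 7.30 (adjusted p between 7.00e-05 and 0.00241). In the families of Ly6c2, Chil3 and Retnlg, limma called 0 of 7 Ly6 genes (1 at an unadjusted p under 0.05), 0 of 2 chitinase-like and 0 of 1 resistin-like genes with both mothers, while 2 Ly6 genes were higher with CD mothers.

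These counts move with single libraries and with the scaling. With library totals in place of the size factors, which puts the median log2 difference of all genes at -1.36 with WD mothers and -1.45 with CD mothers, 210 of all genes were higher with both mothers. The counts were then 9 of 24 for activated transcripts, 2 of 6 for granule proteins, 2 of 6 for the oxidase, 2 of 17 for surface receptors, 3 of 21 for classical monocyte genes, 1 of 8 for S100 genes and 1 of 17 for transcription factors. Without CD_WD replicate 1, 9 of 17 surface receptor genes were higher instead of 4, 11 of 21 classical monocyte genes instead of 7, and 6 of 14 macrophage markers instead of 0. Without WD_CD replicate 1 the surface receptor count was 7. Without any 1 library the counts ran from 1 to 3 for granule proteins, 2 to 6 for S100 genes, 9 to 16 for activated transcripts, 3 to 6 for transcription factors and 2 to 4 for the interleukin 1 system, against 476 to 829 of all genes. The counts of all genes were lowest without CD_CD replicate 1 (477) or replicate 2 (476), where granule proteins and S100 genes were at 1 and 3 or 1 and 2. Activated transcripts were lowest without CD_CD replicate 1, and transcription factors without WD_CD replicate 2. Beside these lists, 5 of 11 MHC class II and dendritic cell markers and 3 of 10 T and NK cell markers were higher with both mothers, and 6 of 14 endothelial markers lower. Macrophage markers summed to 0.879% to 1.51% of the reads in WD_WD and 0.0221% to 1.07% in CD_WD, against 0.128% to 0.770% in WD_CD and 0.189% to 0.253% in CD_CD. The part of these markers in the counts was not tested.

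**Figure D5:**
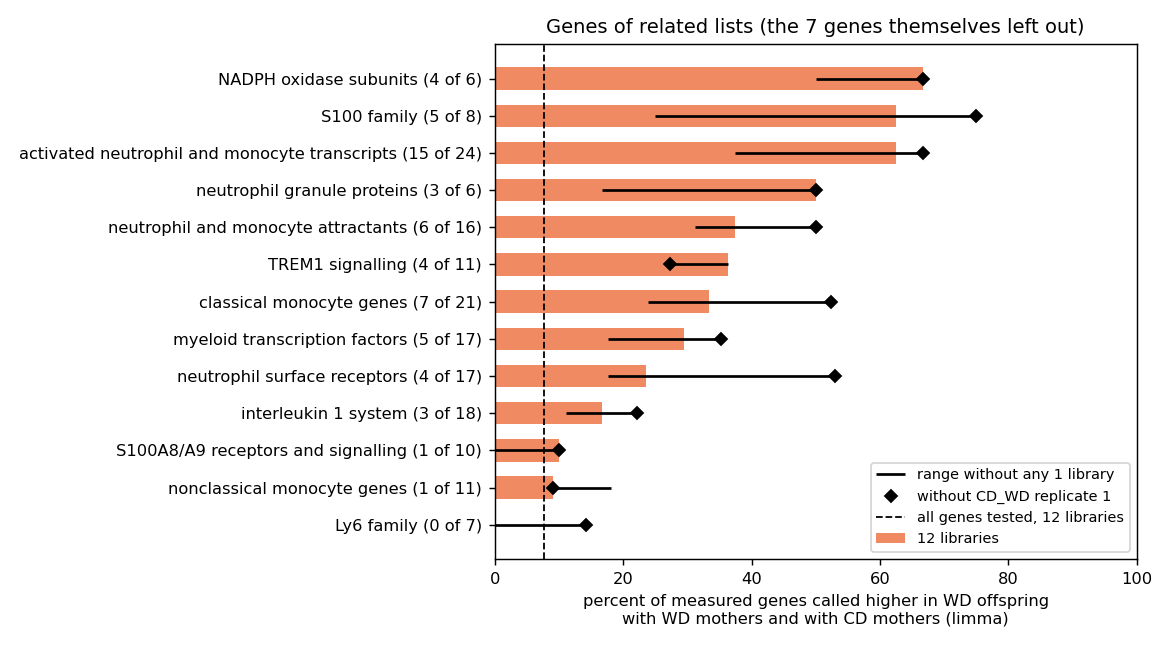
Percent of the measured genes of each list that limma called higher in WD offspring with WD mothers and with CD mothers, with the number called of the number measured after each name, the range without any 1 library as a black line and the value without CD_WD replicate 1 as a diamond. The dashed line is the share of all genes tested, 7.74%, and NADPH oxidase subunits, S100 genes and activated transcripts lie highest.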

How the data were processed

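The submitters' processing notes name HISAT2 2.2.1 and featureCounts 2.0.1, besides DESeq2, SAMtools 1.13, Trim Galore 0.6.10 and FastQC 0.12.1, and the build GRCm38 (mm10). Not given in the sources used here were settings, strand handling and the treatment of reads that match several genes. The authors deposited a normalised signal for each gene and library, which is a count divided by a size factor of the library: 100% of the 127860 values were whole reads within a tolerance of 0.01. The authors' deposited table also holds log2 fold changes, p-values and adjusted p-values for both comparisons of the mother's diet. Every gene had reads in at least 9 libraries.

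The members and all lists were chosen with earlier results of these data known. Since the deposited values are no raw counts, the test was limma 3.58.1 (R 4.3.3) with a mean-variance trend on log2(value + 1), fitted to all 10655 genes and 12 libraries with 1 mean per group, as the design foresaw for such values. Such differences understate the change of low genes. Benjamini-Hochberg adjusted p under 0.05 was called. edgeR 4.0.16 and DESeq2 1.42.0 on the recovered whole reads, with 0 and 14 calls for the mother's diet in WD offspring and 0 and 9 in CD offspring, were alternatives, and leaving out each library for the list counts was added after seeing the data. The limma step was run on simulated counts with the same dispersion for every gene and large known changes in WD_WD alone. That run does not show how the step behaves with libraries that differ in their shares of cell markers, as these do. Named were all 7 genes, up to 3 genes per list called with both mothers and smallest in p, the defining markers, and the 3 genes nearest to each member, of which 2 genes in all are not reported here; Ly6c1, Tlr4, Cd36, Il1r1 and the genes of the closing observations were named after their values were seen. Promoters came from RefSeq (GRCm38.p6), where all 7 symbols matched.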

Additional observations from a re-analysis of the deposited data

How the results depend on the processing

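The direction of the 7 genes between the offspring diets was fixed by their choice, so its sign under the alternatives is no sign of stability. Scaling to total reads was added after seeing the data and put the median log2 difference of all genes at -1.36 with WD mothers and -1.45 with CD mothers. Calls for the offspring's diet became 4708 (440 higher) in place of 2604 (1516 higher) with WD mothers, and 4366 (291 higher) in place of 1599 (1008 higher) with CD mothers. Leaving out 1 library gave 1593 to 2310 and 698 to 1714 calls, lowest without WD_CD replicate 2 and CD_CD replicate 1. For the mother's diet in WD offspring, limma called 0 genes, but 1 with a pseudocount of 5, 1 with the replicate block, 14 with DESeq2 and 0 to 10 without any 1 library (10 without WD_WD replicate 1). In CD offspring DESeq2 called 9 and the limma fits without 1 library 0 to 3 (3 without WD_CD replicate 2). For the interaction DESeq2 called 10, and limma 0 in every fit that left out 1 library.

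Some differences by the mother's diet changed sign. With a pseudocount of 5, S100a9 became 0.13 and Il1r2 0.20 in CD offspring, and the interaction of Ly6c2 -0.067. With edgeR, Chil3 became -0.050 in WD offspring, S100a9 1.07, Il1r2 2.32 and Ly6c2 0.23 in CD offspring, and the interactions of S100a9, Il1r2 and Ly6c2 -0.84, -1.44 and -0.82. With DESeq2, S100a8 became 0.022 and Chil3 -0.0014 in WD offspring, S100a9 1.06, Il1r2 2.31 and Ly6c2 0.21 in CD offspring, and the same interactions -0.79, -1.39 and -0.79. With total reads, Retnlg became -0.023 in CD offspring. Without any 1 library, values in WD offspring ran from -0.59 to 2.10 for Chil3, -0.25 to 1.40 for Il1r2, -1.23 to 0.56 for Retnlg, -1.05 to 1.03 for S100a8 and -0.39 to 1.25 for S100a9. In CD offspring they ran from -2.93 to 1.11 for Il1r2, -0.67 to 0.92 for Retnlg and -1.65 to 1.59 for S100a9. The interactions ran from -0.51 to 3.52 for Il1r2, -0.57 to 1.38 for Ly6c2, -1.24 to 0.55 for Retnlg and -1.35 to 1.90 for S100a9. The cause of these changes was not tested.

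Same-numbered libraries of different groups deviated together no more (correlations of -0.232 to 0.0740) than libraries with different numbers (-0.210 to 0.244). No pairing by number was thus seen. The labels do not state whether numbers pair samples, and with few libraries a group these correlations cannot exclude it. In CD offspring, most of the 7 genes rest on few reads in single libraries, which limits every difference by the mother's diet there.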

Other observations

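S100a6 and S100a11 showed smaller folds than S100a8 and S100a9. S100a6 averaged 21216 normalised counts in WD_WD against 2679 in WD_CD and 18724 in CD_WD against 3643 in CD_CD, and S100a11 averaged 13722 in WD_WD against 5359 in WD_CD and 15417 in CD_WD against 5955 in CD_CD. Retnla, a resistin-like gene of alternatively activated macrophages, ran from 417 to 34600 normalised counts in WD_WD and from 7302 to 46991 in CD_WD, against 1492 to 5816 in WD_CD and 1184 to 5363 in CD_CD. Unlike Retnlg, it was lowest of the 12 libraries in WD_WD replicate 2, so WD and CD libraries overlapped.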
